A study of Mus musculus with 14 samples.

Results

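Regulators of tendon and loose connective tissue were followed through 5 cell populations of the early mouse forelimb bud. The 10 genes are the tendon genes Scx, Mkx and Tnmd, the zinc finger genes Egr1 and Egr2, the odd-skipped related genes Osr1 and Osr2, the mesenchyme homeobox genes Meox1 and Meox2, and Hic1. The 10 genes were fixed by name and looked up by Entrez identifier in a table of 24454 genes. All 10 are in the table, and 9 of them passed the filter on low counts, as did 15125 genes in all. The 14 libraries hold poly(A)+ RNA of live cells sorted from forelimb buds of embryos that carry Sox9 IRES-EGFP, in which EGFP reports Sox9, on a mixed Swiss Albino background. Cells of blood, endothelium and ectoderm were gated out with CD31, Ter119, CD45, EpCam, Gr1 and CD11b, and each library holds the pooled cells of many buds from embryos of both sexes. At E10.5, osteochondral progenitors (OCPs) were sorted as Sox9+PDGFRαhi cells, S9-Pαhi limb bud mesenchymal progenitors (LMPs) as Sox9-JAG1-SCA-1-PDGFRαhi cells, S9-JAG1+ LMPs as Sox9-JAG1+SCA-1- cells and S9-SCA-1+ cells as Sox9-JAG1-SCA-1+ cells. At E11.5, chondroblasts (CBs) were sorted with the same Sox9+PDGFRαhi gate and are described as COL2+ cells. There are 3 libraries of each population and 2 of S9-SCA-1+ cells, which carry the replicate numbers 2 and 3. A comparison with CBs is therefore also a comparison of stages, and the 2 cannot be told apart.

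Tendons, ligaments and the loose connective tissue around muscles arise from limb bud mesenchyme, next to the Sox9+ cells that make cartilage. Scleraxis (Scx) is a bHLH factor and the earliest known marker of tendon progenitors, Mohawk (Mkx) is a homeobox factor needed for collagen production in tendon, and tenomodulin (Tnmd) is a membrane protein of mature tendon cells. EGR1 and EGR2 are zinc finger factors that activate tendon collagen genes, and both belong to the immediate early genes, which are switched on within minutes of a stimulus. OSR1 and OSR2 are zinc finger factors of irregular connective tissue and of developing joints. MEOX1 and MEOX2 act in somites and in the muscle precursors that migrate into the limb, and HIC1 is a zinc finger repressor found in connective tissue progenitors.

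The total counts per library lay between 20316583 and 29162751. Levels are given as counts scaled to a common library size (CPM) after TMM scaling, and 3 counts, the least that was read as presence, equal 0.101 to 0.149 CPM. Such limits cover counting error only. Sox9 lay at 411 to 625 CPM in OCPs and CBs and at 7.41 to 65.4 CPM in the other libraries, and Jag1 at 228 to 364 CPM in S9-JAG1+ LMPs, 102 to 137 CPM in CBs and 10.53 to 21.3 CPM in the rest. Pdgfra lay at 667 to 746 CPM in OCPs, 773 to 949 CPM in CBs and 360 to 530 CPM in S9-Pαhi LMPs. It was at 246 to 248 CPM in S9-JAG1+ LMPs and at 44.8 and 24.0 CPM in S9-SCA-1+ cells. Col2a1 lay at 695 to 1228 CPM in OCPs, at 1273 to 1885 CPM in CBs and at most at 168 CPM elsewhere. Ly6a, which encodes SCA-1, reached only 3.10 and 3.36 CPM in the S9-SCA-1+ cells but was at most 0.406 CPM elsewhere. These cells held 428 and 498 CPM of Pax3, a gene of muscle precursors, where the other libraries had at most 1.39 CPM. In 3 libraries Pitx1, a hindlimb gene, was higher than in the others: 38.2 CPM in S9-Pαhi replicate 3, 29.4 CPM in OCP replicate 1 and 23.6 CPM in S9-JAG1+ replicate 1, against 10.4 CPM or less. Hoxc10, another hindlimb marker, was at 7.92, 8.48 and 3.90 CPM in these libraries. It was also at 4.32 CPM in S9-JAG1+ replicate 3 and at 3.95 and 6.02 CPM in the S9-SCA-1+ libraries. OCP replicate 2 had 1.81 CPM of Hoxc10, and the rest at most 0.419 CPM. CB replicate 3 had 113 CPM of 8 anterior and proximal markers in sum, below the other CB libraries (up to 424 CPM), and S9-SCA-1+ replicate 3 had 1917 CPM of blood markers, against 66.6 CPM in replicate 2. Nothing states that the libraries of a population came from separate litters, so p-values measure the spread between these sorted pools. In sorted pools, fewer cells with a transcript and less of it per cell cannot be told apart.

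The 9 tested genes were each unevenly spread over the 5 populations. In one edgeR quasi-likelihood test of all 5 population means, with Benjamini-Hochberg adjustment over all tested genes, all 9 had an adjusted p of at most 0.1 and a range of at least 1.2 on the log2 scale. Of all tested genes, 29.2% met the same limits. The largest range belonged to Hic1, with 7.72 log2 units between CBs and S9-SCA-1+ cells, and the smallest to Mkx, with 2.07 log2 units. S9-JAG1+ LMPs had the lowest mean of Scx, Osr1, Osr2, Meox1, Meox2, Egr1 and Egr2, and S9-SCA-1+ cells had the lowest mean of Mkx and Hic1. The plot of levels shows each library.

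**Figure D1:**
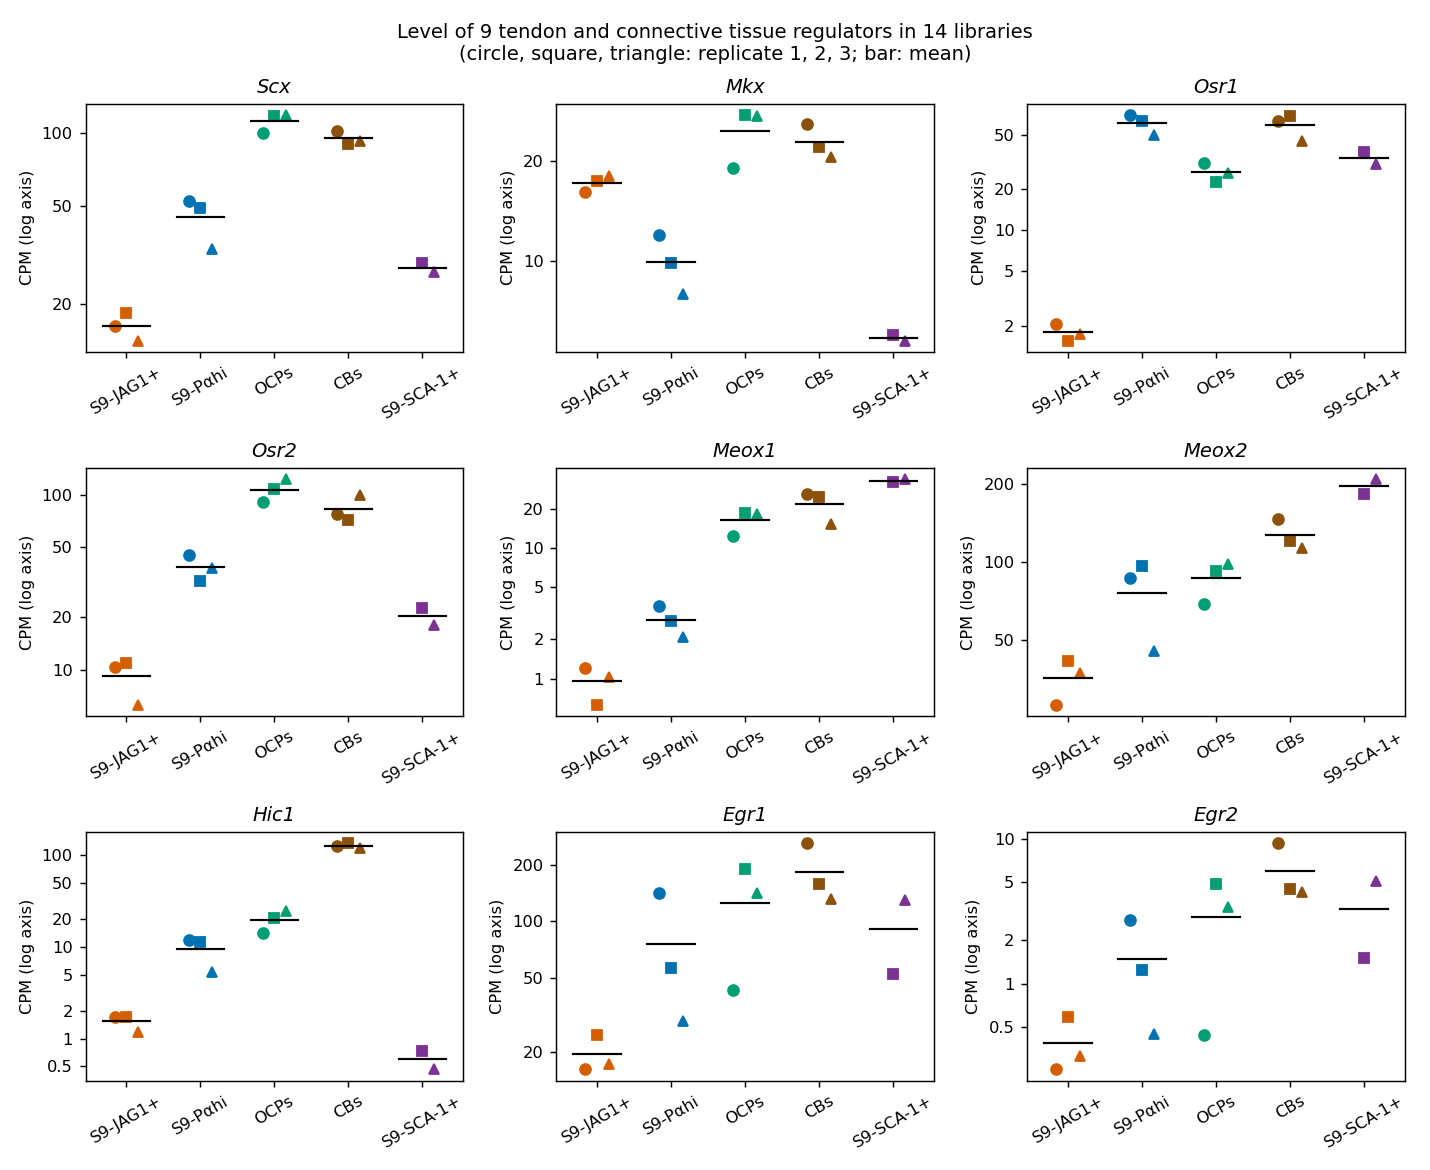
Level of each of the 9 tested genes in the 14 libraries, in CPM on logarithmic axes that differ between panels; circles, squares and triangles are replicates 1, 2 and 3 and bars are population means. Scx and Osr2 peak in OCPs and CBs, Osr1 is at 1.55 to 2.05 CPM in S9-JAG1+ LMPs and above 20 CPM in the others, both Meox genes peak in S9-SCA-1+ cells, Hic1 peaks in CBs, and Egr1 and Egr2 vary widely between replicates.

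Scx (Entrez 20289, GRCm38 chr15:76457411-76459468) was highest in the Sox9+ populations. The 3 OCP libraries had 99.4, 117 and 118 CPM and the CB libraries 101, 90.0 and 92.9 CPM. S9-Pαhi LMPs followed with 52.5, 49.2 and 33.4 CPM, S9-SCA-1+ cells with 29.3 and 26.9 CPM, and S9-JAG1+ LMPs with 16.3, 18.3 and 14.1 CPM. No library of one of these 4 levels reached into the range of the next, and only OCPs and CBs overlapped. OCPs and CBs did not differ beyond their spread (log2 difference 0.23 ± 0.14 SE, adjusted p = 0.244). The other steps down were each larger than it: 2.10-fold from CBs to S9-Pαhi LMPs (adjusted p = 5.53e-05), 1.61-fold from there to S9-SCA-1+ cells (adjusted p = 0.00743), and 1.73-fold from S9-SCA-1+ cells to S9-JAG1+ LMPs (adjusted p = 0.00237). OCPs had 6.87-fold more Scx than S9-JAG1+ LMPs (log2 fold change 2.78 ± 0.16 SE). Scx lies inside Bop1, which runs on the opposite strand and was measured at 58.7 to 152 CPM, and whether counting used the strand is not stated. The annotated exons of both genes share 0 bases, and Bop1 was lowest in CBs and highest in S9-SCA-1+ cells.

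Mkx (Entrez 210719, GRCm38 chr18:6934966-7004779) had another order. OCPs had 19.1, 27.6 and 27.4 CPM and CBs 25.8, 22.1 and 20.6 CPM, but S9-JAG1+ LMPs came next with 16.2, 17.4 and 18.0 CPM. S9-Pαhi LMPs had 12.0, 9.85 and 7.92 CPM and S9-SCA-1+ cells 5.98 and 5.73 CPM. Thus the JAG1+ cells, lowest in Scx, lay above the S9-Pαhi LMPs in Mkx, by 1.73-fold (log2 difference 0.79 ± 0.16 SE, adjusted p = 0.00308), which is under the fold limit for a call. OCPs and CBs again did not differ beyond their spread (log2 difference 0.11 ± 0.16 SE, adjusted p = 0.641), and CBs exceeded S9-JAG1+ LMPs by 1.33-fold (adjusted p = 0.0378). OCPs had 2.48-fold more Mkx than S9-Pαhi LMPs (adjusted p = 0.000124) and 4.21-fold more than S9-SCA-1+ cells (adjusted p = 2.14e-06).

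Tnmd (Entrez 64103, GRCm38 chrX:133851008-133865577) was not tested because it failed the filter. It had between 0 and 7 counts per library, with 0 counts in 5 libraries and more than 3 counts in only 2, CB replicate 1 and S9-JAG1+ replicate 2, with 7 counts each. These amount to 0.235 and 0.293 CPM, so Tnmd was at or near the limit of detection in every population, and no difference was detectable at this depth.

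Osr1 and Osr2 encode closely related factors but were distributed differently. Osr1 (Entrez 23967, GRCm38 chr12:9574442-9581500) was highest in S9-Pαhi LMPs, with 70.5, 64.1 and 50.3 CPM, and in CBs, with 63.9, 69.1 and 45.1 CPM. S9-SCA-1+ cells had 37.7 and 30.9 CPM and OCPs 31.3, 22.5 and 26.3 CPM, while S9-JAG1+ LMPs had 2.05, 1.55 and 1.74 CPM. The JAG1+ libraries lay far below all others. S9-Pαhi LMPs exceeded them 34.5-fold (log2 fold change 5.11 ± 0.22 SE, adjusted p = 3.94e-09), and even OCPs, the next population up, exceeded them 14.96-fold (adjusted p = 1.43e-08). S9-Pαhi LMPs and CBs did not differ beyond their spread (log2 difference 0.05 ± 0.17 SE, adjusted p = 0.814), nor did S9-SCA-1+ cells and OCPs (log2 difference 0.36 ± 0.19 SE, adjusted p = 0.152). Osr1 was the one member that was lower in OCPs than in S9-Pαhi LMPs past both limits, by 2.31-fold (log2 fold change -1.21 ± 0.17 SE, adjusted p = 0.000382). That value lies on the fold limit: it was -1.176 with library totals in place of TMM, and -1.11 without OCP replicate 2, -1.10 without S9-Pαhi replicate 1 and -1.177 without S9-Pαhi replicate 2.

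Osr2 (Entrez 107587, GRCm38 chr15:35296098-35303305) followed Scx. OCPs had 90.6, 108 and 122.7 CPM, CBs 77.5, 71.8 and 99.1 CPM, S9-Pαhi LMPs 45.4, 32.04 and 38.2 CPM, S9-SCA-1+ cells 22.5 and 18.1 CPM, and S9-JAG1+ LMPs 10.4, 10.9 and 6.30 CPM. OCPs and CBs overlapped and did not differ beyond their spread (log2 difference 0.37 ± 0.19 SE, adjusted p = 0.161), and each of the other steps down this order was larger than it. CBs had 2.15-fold more Osr2 than S9-Pαhi LMPs (adjusted p = 0.000399), S9-Pαhi LMPs 1.90-fold more than S9-SCA-1+ cells (adjusted p = 0.00707), and S9-SCA-1+ cells 2.21-fold more than S9-JAG1+ LMPs (adjusted p = 0.00152). From OCPs to S9-JAG1+ LMPs the difference was 11.6-fold (log2 fold change 3.54 ± 0.21 SE).

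Both Meox genes were highest in S9-SCA-1+ cells and lowest in S9-JAG1+ LMPs, but they differed in how steeply they fell between. Meox1 (Entrez 17285, GRCm38 chr11:101877510-101894354) was at 31.8 and 33.6 CPM in S9-SCA-1+ cells, 25.8, 24.7 and 15.2 CPM in CBs, and 12.4, 18.4 and 18.2 CPM in OCPs. In S9-Pαhi LMPs it was at 3.58, 2.74 and 2.09 CPM and in S9-JAG1+ LMPs at 1.199, 0.629 and 1.03 CPM. A gap without overlap thus separated the LMPs from the other 3 populations. OCPs had 5.76-fold more Meox1 than S9-Pαhi LMPs (log2 fold change 2.53 ± 0.25 SE, adjusted p = 1.96e-05), and S9-SCA-1+ cells 34.2-fold more than S9-JAG1+ LMPs (log2 fold change 5.10 ± 0.30 SE, adjusted p = 1.27e-08). CBs and OCPs did not differ beyond their spread (log2 difference 0.43 ± 0.22 SE, adjusted p = 0.165). The CB replicate with the lowest Meox1, replicate 3, is the one with fewest anterior and proximal transcripts.

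Meox2 (Entrez 17286, GRCm38 chr12:37108540-37179534) spanned a narrower range than Meox1. It had 182 and 208 CPM in S9-SCA-1+ cells, 147, 121 and 114 CPM in CBs, 68.9, 92.3 and 98.5 CPM in OCPs, 87.0, 96.5 and 45.6 CPM in S9-Pαhi LMPs, and 28.3, 41.8 and 37.6 CPM in S9-JAG1+ LMPs. OCPs and S9-Pαhi LMPs overlapped and did not differ beyond their spread (log2 difference 0.18 ± 0.23 SE, adjusted p = 0.632). S9-SCA-1+ cells had 2.55-fold more Meox2 than S9-Pαhi LMPs (log2 fold change 1.35 ± 0.25 SE, adjusted p = 0.00108) and 5.44-fold more than S9-JAG1+ LMPs (adjusted p = 4.90e-06). Without S9-Pαhi replicate 3, the first of these log2 fold changes was 1.09.

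In S9-SCA-1+ cells all 7 myogenic precursor markers had a higher mean than in any other population, with summed levels of 1500.4 and 1504 CPM. That sum lay between 1.93 and 11.4 CPM in the other libraries. Lbx1, a homeobox gene of migrating muscle precursors, had a mean of 248 CPM, and Met, the receptor needed for their migration, one of 689 CPM. Of the 8 somite and sclerotome markers, the summed level was 94.0 and 124 CPM in S9-SCA-1+ cells and 42.1 to 402 CPM elsewhere. In S9-SCA-1+ cells Nkx3-2 was at 0, and the other 7 had more than 3 counts in both libraries. The part of muscle precursors in the Meox1 and Meox2 levels of S9-SCA-1+ cells was not tested. OCPs and CBs had 7.77 to 11.4 CPM of the myogenic markers in sum, with 12.4 to 25.8 CPM of Meox1.

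Hic1 (Entrez 15248, GRCm38 chr11:75161377-75170255) marked the chondroblast libraries most strongly. CBs had 127, 135 and 121 CPM, OCPs 14.3, 20.6 and 24.8 CPM, S9-Pαhi LMPs 11.9, 11.3 and 5.33 CPM, S9-JAG1+ LMPs 1.71, 1.72 and 1.19 CPM, and S9-SCA-1+ cells 0.734 and 0.463 CPM. None of these 5 ranges overlapped. CBs exceeded OCPs by 6.40-fold (log2 fold change 2.68 ± 0.24 SE, adjusted p = 5.08e-06), S9-JAG1+ LMPs by 82.9-fold and S9-SCA-1+ cells by 211-fold (adjusted p = 6.77e-09). OCPs exceeded S9-Pαhi LMPs by 2.08-fold (adjusted p = 0.0118), and S9-Pαhi LMPs exceeded S9-JAG1+ LMPs by 6.24-fold (adjusted p = 2.58e-05). At the low end, the S9-SCA-1+ libraries held 21 and 13 Hic1 counts and the S9-JAG1+ libraries 30 to 41. The difference between these populations (2.55-fold, adjusted p = 0.0559) passed the limits with all libraries, and missed them without either S9-SCA-1+ library (adjusted p = 0.107 and 0.292) or without S9-JAG1+ replicate 1 or 2 (adjusted p = 0.113 and 0.125). With 1 S9-SCA-1+ library left, the fit takes it to vary like those of the other populations.

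Egr1 and Egr2 differed from the other members in their spread between replicates. Egr1 (Entrez 13653, GRCm38 chr18:34861207-34864956) was at 261, 158 and 132 CPM in CBs, 42.9, 190.1 and 141 CPM in OCPs, 52.5 and 130 CPM in S9-SCA-1+ cells, 142, 56.4 and 29.5 CPM in S9-Pαhi LMPs, and 16.2, 24.8 and 17.4 CPM in S9-JAG1+ LMPs. Its highest and lowest libraries differed 4.82-fold within S9-Pαhi LMPs and 4.43-fold within OCPs, where for Scx the same ratios were 1.57 and 1.19. All 3 S9-JAG1+ libraries lay below every other library. Among the other 4 populations each overlapped the next in the order of the means, while all CB libraries lay above both S9-SCA-1+ libraries. S9-JAG1+ LMPs had less Egr1 than S9-Pαhi LMPs (3.91-fold, log2 fold change 1.97 ± 0.58 SE, adjusted p = 0.0269). Without S9-Pαhi replicate 1 that log2 fold change was 1.15, with an adjusted p of 0.188. They also had less than OCPs (6.41-fold, adjusted p = 0.00262) and CBs (9.45-fold, adjusted p = 0.000396). None of the steps among the other 4 populations, taken in order of their means, was larger than its spread (adjusted p = 0.482, 0.596 and 0.815).

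Egr2 (Entrez 13654, GRCm38 chr10:67534469-67542188) had low counts. It reached 9.28, 4.52 and 4.32 CPM in CBs, 1.504 and 5.09 CPM in S9-SCA-1+ cells, 0.446, 4.85 and 3.36 CPM in OCPs, 2.76, 1.24 and 0.448 CPM in S9-Pαhi LMPs, and 0.257, 0.587 and 0.317 CPM in S9-JAG1+ LMPs. Within OCPs the libraries differed 10.9-fold. CBs had 15.5-fold more Egr2 than S9-JAG1+ LMPs (log2 fold change 3.95 ± 0.83 SE, adjusted p = 0.00095). S9-Pαhi and S9-JAG1+ LMPs did not pass the test (3.87-fold, adjusted p = 0.142), and neither did any other neighbours in the order of the means. That difference between the LMPs did pass in 4 other settings, with only these 2 populations in the fit (adjusted p = 0.0441), without OCP replicate 1 (0.0570), without S9-Pαhi replicate 3 (0.0818), and without the 3 libraries with most Pitx1 (0.0575), a setting chosen after seeing the data.

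The immediate early genes Fos, Fosb and Jun were also lowest in the OCP and S9-Pαhi libraries with least Egr1 and Egr2. These libraries are the ones with most Pitx1 in their populations. In OCP replicate 1, Fos, Fosb and Jun were at 60.4, 27.1 and 254 CPM, where the other OCP libraries had 145 to 200.3, 105 to 160 and 429.9 to 807 CPM. In S9-Pαhi replicate 3 they were at 52.2, 30.3 and 136 CPM. Replicate 1 of that population had 147, 110 and 300.2 CPM, and replicate 2 had 75.8, 53.4 and 184 CPM. A list of 22 immediate early and stress genes other than Egr1 and Egr2 was also summed. The sum was 3156 CPM in OCP replicate 1, against 4601 and 3753 CPM in replicates 2 and 3. In S9-Pαhi replicate 3 it was 3117 CPM, between replicate 2 (3086 CPM) and replicate 1 (3965 CPM), so the list as a whole was not lowest there. S9-JAG1+ replicate 1, the third library with much Pitx1, was lowest of its population in Egr1, Egr2 and Jun (124 CPM), but replicate 3 was lowest in Fos (26.2 against 33.2 CPM) and Fosb (22.2 against 33.6 CPM). In S9-SCA-1+ cells, replicate 3, which had 1917 CPM of blood markers against 66.6 CPM in replicate 2, had more Egr1, Egr2, Fos and Jun than replicate 2 but 11.8 against 12.4 CPM of Fosb. Fosb and Egr1 did not always move together, since S9-JAG1+ replicate 2 had more Fosb than S9-Pαhi replicate 2 (88.6 against 53.4 CPM) and less Egr1 (24.8 against 56.4 CPM). The part of the Pitx1-rich or blood-rich libraries in these levels was not tested.

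**Figure D2:**
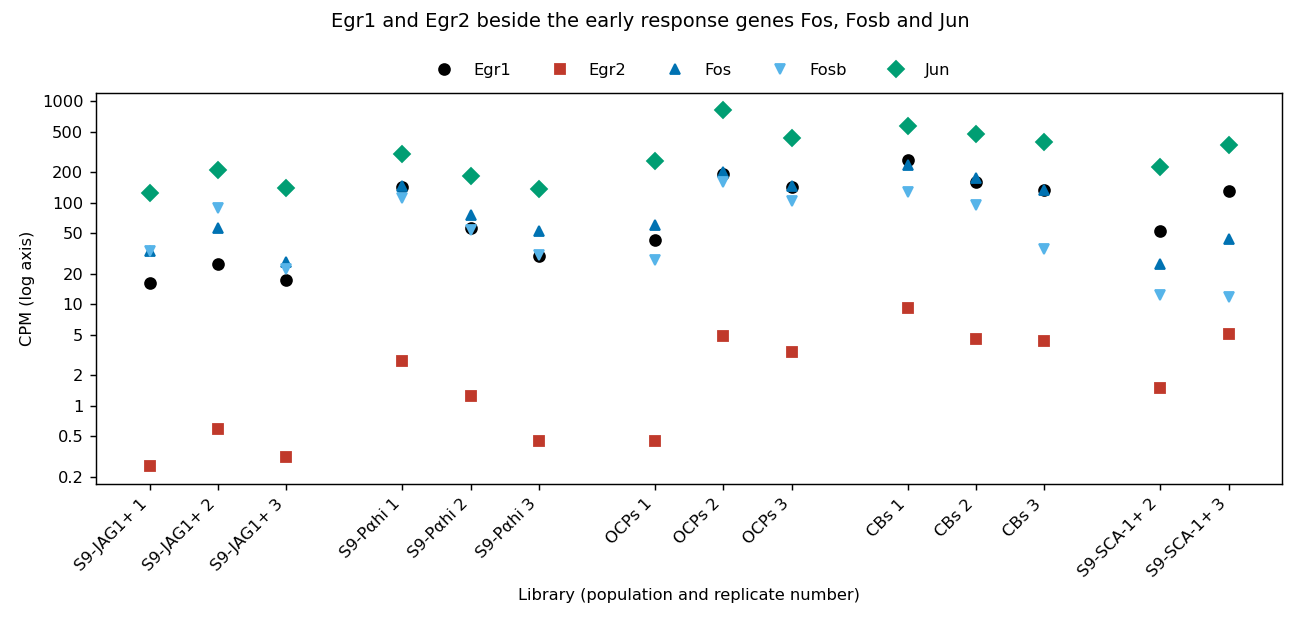
Egr1 and Egr2 beside Fos, Fosb and Jun in each of the 14 libraries, in CPM on a logarithmic axis. Within OCPs replicate 1 is lowest in all 5 genes (42.9 CPM of Egr1), within S9-Pαhi LMPs replicate 3 is (29.5 CPM of Egr1), and Egr1 is at 16.2 to 24.8 CPM in S9-JAG1+ LMPs, below every other library.

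The Egr2 gene shows the element through which many immediate early genes answer serum response factor, the CArG box. It was searched for by this name's consensus, which reads the same on both strands, in the RefSeq promoter windows of GRCm38.p6 (250 bases before to 50 after a start site). Windows were at hand for 4 members, Tnmd, Egr2, Meox2 and Hic1, and the box was found in those of Egr2 alone, in 4 of its 5 windows at 2 places. Of all 32851 windows, 1.63% hold it. Both stretches are on the plus strand, with the box in capitals and 20 bases on either side, and each box begins 72 bases before a start site:
Egr2, chr10:67537474-67537523: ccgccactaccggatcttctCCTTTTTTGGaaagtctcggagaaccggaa
Egr2, chr10:67537777-67537826: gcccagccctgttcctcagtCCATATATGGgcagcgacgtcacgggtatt
A match of letters is a description and does not show that the factor binds there in these cells.

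The Schwann cell and neural crest markers were examined beside Egr2, since EGR2 is also known as a factor of myelinating Schwann cells. The sum of these 8 markers was 46.8 to 54.0 CPM in CBs, 27.2 to 33.5 CPM in OCPs and 12.8 to 20.6 CPM in the other libraries. Sox10, their defining factor, was at 1.87 to 3.99 CPM in OCPs and CBs and at 0 to 0.178 CPM elsewhere. In S9-SCA-1+ cells, Egr2 was at 1.504 and 5.09 CPM, Sox10 at 0 and 0.178 CPM, and the 8 markers in sum at 17.3 and 16.8 CPM. The part of Schwann cell precursors in the Egr2 level of any population was not tested.

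The first pairwise question is how the 2 LMP populations differ. Past both limits, 6 members were higher in S9-Pαhi than in S9-JAG1+ LMPs, Scx, Egr1, Osr1, Osr2, Meox1 and Hic1, and none was lower. Of all tested genes, 7.00% passed in either direction. The log2 fold changes of the called members ran from 1.48 ± 0.15 SE for Scx to 5.11 for Osr1. Meox2 was 2.13-fold higher (adjusted p = 0.00389) and so missed only the fold limit. Its log2 fold change passed that limit without S9-Pαhi replicate 3 (1.35) and without S9-JAG1+ replicate 2 (1.22). It also did so without the 3 libraries with most Pitx1 (1.21), a setting chosen after seeing the data. The median log2 fold change of the 9 members was 1.95, beside a median of -0.0025 over all tested genes.

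OCPs against S9-Pαhi LMPs compares Sox9+ with Sox9- cells that share the PDGFRαhi gate and the stage. Their Pdgfra transcript levels did not overlap, at 667 to 746 CPM in OCPs and 360 to 530 CPM in S9-Pαhi LMPs. In OCPs 4 members were higher, Scx (2.47-fold, adjusted p = 5.49e-05), Mkx, Osr2 (2.78-fold, adjusted p = 0.000188) and Meox1, and Osr1 was lower, where 4.84% of all tested genes passed. Hic1 was 2.08-fold higher and missed the fold limit, but its log2 fold change passed it without OCP replicate 1 (1.243) or without S9-Pαhi replicate 1 (1.241). Scx has a log2 fold change of 1.31 here, which became 1.13 without S9-Pαhi replicate 3, and that of Mkx, also 1.31, became 1.178 without the same library and 1.196, just under the limit, without OCP replicate 3. Without the 3 libraries with most Pitx1, an alternative chosen after seeing the data, Mkx, Osr1, Osr2 and Meox1 still passed and Scx had a log2 fold change of 1.19 (adjusted p = 5.53e-05).

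From OCPs to CBs, Hic1 alone passed both limits, where 7.77% of all tested genes did. Osr1 was 2.22-fold higher in CBs (log2 fold change 1.15 ± 0.17 SE, adjusted p = 0.00029), just under the fold limit. It passed it without OCP replicate 1 (1.28), without CB replicate 3 (1.29) and with library totals in place of TMM (1.23). Scx, Mkx and Osr2 had log2 fold changes of -0.23, -0.11 and -0.37, with adjusted p of 0.244, 0.641 and 0.161.

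S9-SCA-1+ cells against S9-Pαhi LMPs compares 2 Sox9- populations that lack JAG1. Meox1 (11.6-fold, adjusted p = 2.18e-07) and Meox2 were higher in S9-SCA-1+ cells and Hic1 was lower, by 15.9-fold (log2 fold change -3.99 ± 0.41 SE, adjusted p = 4.84e-06), where 4.96% of all tested genes passed as higher and 5.58% as lower. Scx, Mkx, Osr1 and Osr2 were 1.61- to 1.90-fold lower in S9-SCA-1+ cells, with adjusted p from 0.00497 to 0.00971, under the fold limit in each case.

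**Figure D3:**
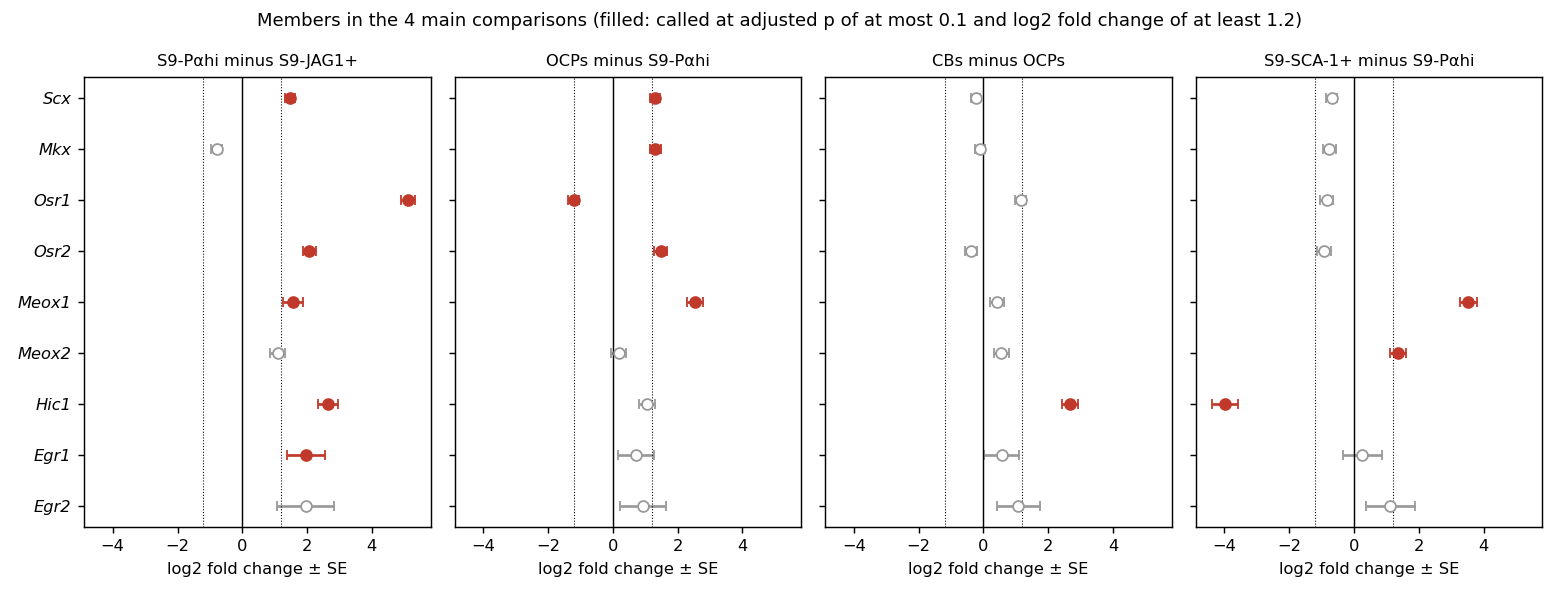
Log2 fold change with its standard error for the 9 tested genes in the 4 main comparisons; filled red points passed both limits, open grey points did not, and dotted lines mark the fold limit. All 6 filled points of S9-Pαhi against S9-JAG1+ LMPs lie on the right, Osr1 alone lies on the left for OCPs against S9-Pαhi LMPs (-1.21), and Hic1 is the one filled point of CBs against OCPs (2.68).

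The other 6 comparisons share libraries with these and each other. In OCPs 8 members, every tested one but Mkx, were higher than in S9-JAG1+ LMPs (12.5% of tested genes passed) and the same was counted for CBs against S9-JAG1+ LMPs (19.4%). In CBs 5 members were higher than in S9-Pαhi LMPs, Mkx, Egr1, Egr2, Meox1 and Hic1 (12.7%), of which Mkx lay on the fold limit and Egr1 had an adjusted p of 0.0737. S9-SCA-1+ cells had more Egr1, Egr2, Osr1, Meox1 and Meox2 and less Mkx and Hic1 than S9-JAG1+ LMPs (11.4%). Some of these calls ended with 1 library left out. Without S9-Pαhi replicate 3 the log2 fold changes between CBs and S9-Pαhi LMPs were 0.89 for Egr1, 1.07 for Mkx and 1.60 for Egr2 (adjusted p = 0.104). Without CB replicate 1 they were 0.90 for Egr1 (adjusted p = 0.249) and 1.52 for Egr2 (adjusted p = 0.122). The Egr1 call was also lost without CB replicate 2 (1.33, adjusted p = 0.109) and without S9-Pαhi replicate 2 (1.10, adjusted p = 0.187). With 1 library left out, this call was lost in 4 fits and that of Mkx in 10. Meox2 was 1.14 higher on the log2 scale in OCPs than in S9-JAG1+ LMPs without OCP replicate 3, and 1.13 without S9-JAG1+ replicate 1. For S9-SCA-1+ cells against S9-JAG1+ LMPs, Egr1 and Egr2 had an adjusted p of 0.236 and 0.276 without S9-SCA-1+ replicate 3, the library with most blood markers, and the 1 library left is then taken to vary like those of the other populations. Scx, Mkx, Osr2 and Hic1 were higher in OCPs than in S9-SCA-1+ cells (12.8%), and also in CBs (19.4%). Across the 10 comparisons, members passed 51 of 90 tests, 9 of 10 for Hic1 and 4 of 10 for Egr2 and Meox2. Of all tested genes, 4.84% to 19.4% passed in a comparison. The 90 tests reuse the same 5 population means and are not independent.

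The balance between paralogues was compared as the log2 ratio of their levels (the difference of log2 CPM with a prior count of 2), in the 6 Sox9+ libraries (OCPs and CBs) against the 6 LMP libraries. The log2 ratio of Meox1 to Meox2 was higher in the Sox9+ than in the LMP libraries, at -2.49 ± 0.22 (SD, n = 6) against -4.92 ± 0.56 (SD, n = 6). The difference of 2.43 had an exact two-sided permutation p of 0.00216, the smallest that 924 relabellings allow, and an adjusted p of 0.00649 over the 3 pairs of paralogues. The ranges, -2.89 to -2.29 and -5.89 to -4.39, did not overlap. In the 2 S9-SCA-1+ libraries, which are Sox9-, the ratio was -2.52 and -2.63, inside the range of the Sox9+ libraries. The ratio thus set the LMPs apart from all other libraries, and did not separate Sox9+ from Sox9- cells. Each group of 6 joins 2 populations, so these libraries are not replicates of 1 condition, and the p-value does not measure a spread between populations. The CBs among the Sox9+ libraries are of E11.5, while the OCPs and LMPs are of E10.5.

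For Osr1 and Osr2, the ranges of the Sox9+ and the LMP libraries overlapped. The log2 ratio was 0.39 to 1.00 in S9-Pαhi LMPs and 0.74 and 0.77 in S9-SCA-1+ cells. It was -2.26 to -1.53 in OCPs, -1.13 to -0.06 in CBs and -2.76 to -1.81 in S9-JAG1+ LMPs. The difference between Sox9+ and LMP libraries was -0.44 (exact two-sided permutation test, adjusted p = 0.574, 6 against 6 libraries). The log2 ratio of Egr1 to Egr2 was 4.65 to 6.36 over the 14 libraries, and the difference between Sox9+ and LMP libraries was -0.23 (exact two-sided permutation test, adjusted p = 0.574). Without OCP replicate 1, which has the highest Egr1 to Egr2 ratio, that difference was -0.44 with an adjusted p of 0.0195 by the same exact test.

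**Figure D4:**
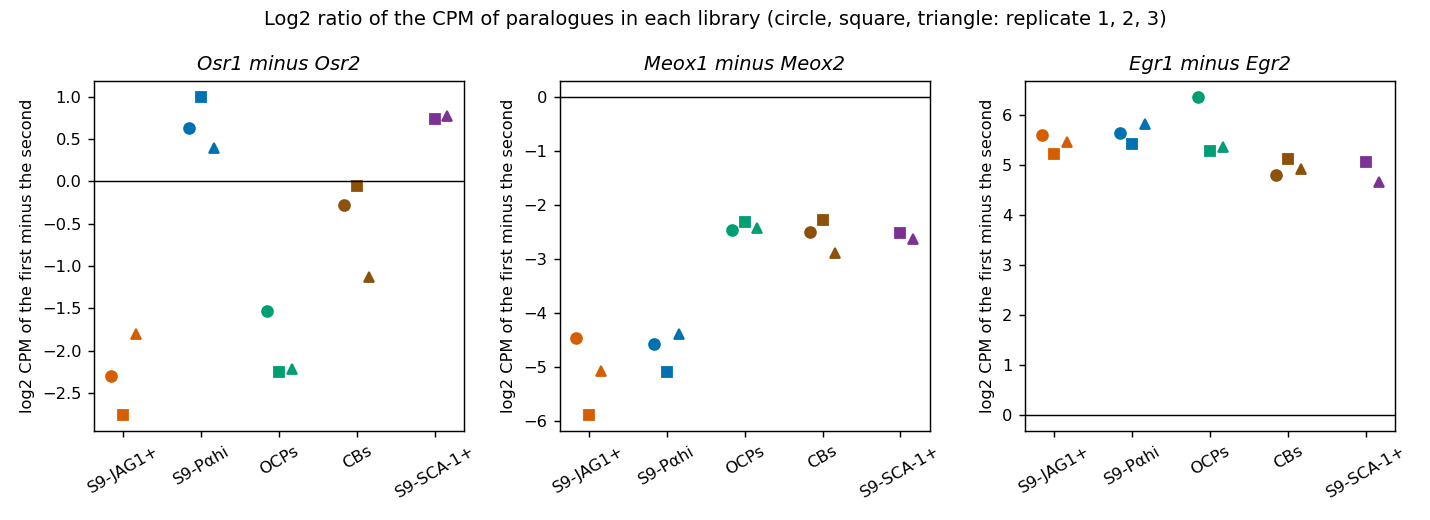
Log2 ratio of the CPM of Osr1 to Osr2, Meox1 to Meox2 and Egr1 to Egr2 in each library, grouped by population. The Osr ratio is above 0 in S9-Pαhi LMPs and S9-SCA-1+ cells, the Meox ratio is -5.89 to -4.39 in both LMP populations and -2.89 to -2.29 in the others, and the Egr ratio is 4.65 to 6.36 throughout.

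Levels of different genes can be set side by side only per length of transcript, as CPM per kb. In OCPs the order was Scx (98.1 ± 9.26 CPM per kb, SD, n = 3), Osr2 (62.6 ± 9.37), Egr1 (40.6 ± 24.4), Meox2 (36.9 ± 6.65), Osr1 (13.3 ± 2.19), Mkx (7.71 ± 1.52), Meox1 (7.39 ± 1.55), Hic1 (4.43 ± 1.176) and Egr2 (0.973 ± 0.755). Scx also had the highest mean in CBs (83.4 ± 5.21 CPM per kb) and S9-Pαhi LMPs (39.7 ± 8.99), but its libraries overlapped those of Egr1 in CBs (59.9 ± 22.2) and those of Meox2 (32.5 ± 11.53), Osr1 (30.6 ± 5.15) and Egr1 (24.8 ± 19.2) in S9-Pαhi LMPs (all SD, n = 3). In S9-SCA-1+ cells Meox2 led instead with a mean of 83.2 CPM per kb, ahead of Egr1 with 29.7 and Scx with 24.7 CPM per kb. Egr1 was at 17.1 CPM per kb in replicate 2 and 42.3 in replicate 3, and Scx at 25.8 and 23.7. Egr1 thus lay above Scx in replicate 3 only. Meox2 and Scx were close at the top in S9-JAG1+ LMPs, with 15.3 ± 2.95 and 14.3 ± 1.85 CPM per kb (SD, n = 3), which overlap.

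The matrix genes of tendon and connective tissue, 24 in the list and all tested, are collagens, small leucine-rich proteoglycans and other secreted proteins. Of these, 9 were higher and 2 lower in S9-Pαhi than in S9-JAG1+ LMPs, 3 higher and 2 lower in OCPs than in S9-Pαhi LMPs, and 10 higher and none lower in CBs than in OCPs. In S9-SCA-1+ cells 1 was higher and 15 lower than in S9-Pαhi LMPs. The median log2 fold changes of the list were 0.42, 0.07, 0.88 and -1.83 in this order, beside -0.0025, 0.02, -0.02 and 0.01 over all tested genes. Over all tested genes the shares that passed were 7.00%, 4.84% and 7.77% in either direction for the first 3 comparisons, and for S9-SCA-1+ cells 4.96% higher and 5.58% lower. Kera, which encodes the proteoglycan keratocan, was at 17.9 ± 0.907 CPM (SD, n = 3) in CBs, at 0.317 ± 0.138 CPM in OCPs, and had no count in S9-JAG1+ LMPs and S9-SCA-1+ cells. Lum, for lumican, rose 2.57 on the log2 scale from OCPs to CBs (adjusted p = 0.000212), and Dcn, for decorin, rose 3.20 (adjusted p = 0.000181), from 1.26 to 11.54 CPM. The collagen gene Col12a1 passed in both earlier comparisons, with 7.89 CPM in S9-JAG1+ LMPs, 39.0 CPM in S9-Pαhi LMPs and 110 CPM in OCPs, and had 219 CPM in CBs and 4.49 CPM in S9-SCA-1+ cells. Without S9-JAG1+ replicate 3, 7 matrix genes in place of 11 passed between the LMPs. Tnc, for tenascin C, and Thbs4, for thrombospondin 4, were the 2 matrix genes that were lower in S9-Pαhi than in S9-JAG1+ LMPs.

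Among 22 tested genes of the signals that induce tendon (FGF, TGFβ and GDF ligands, receptors and targets), 5 were higher and 3 lower in S9-Pαhi than in S9-JAG1+ LMPs. The 3 lower ones, Spry1, Spry2 and Spry4, are feedback inhibitors induced by FGF signalling. Spry1 was at 136 ± 11.7 CPM (SD, n = 3) in S9-JAG1+ LMPs, 56.4 ± 14.9 CPM in S9-Pαhi LMPs, 36.1 ± 5.47 CPM in OCPs, 33.8 ± 2.59 CPM in CBs and 11.4 CPM in S9-SCA-1+ cells. None was higher and 3 were lower in OCPs than in S9-Pαhi LMPs, and 4 were higher and none lower in CBs than in OCPs. One of these 4, Gdf5, a growth factor gene of joints and tendon, was at 3.92 ± 0.556 CPM in OCPs and 34.6 ± 7.88 CPM in CBs (log2 fold change 3.13 ± 0.21 SE, adjusted p = 5.91e-07). Fgfr2, an FGF receptor gene, was at 18.2 CPM in S9-JAG1+ LMPs and 91.2 CPM in S9-Pαhi LMPs (adjusted p = 5.59e-06). Gdf7 was at 2.32 CPM or less in every population mean. Without S9-JAG1+ replicate 3 or S9-Pαhi replicate 2, 5 genes of this list in place of 8 passed between the LMPs. In S9-SCA-1+ cells 1 of the 22 was higher and 8 were lower than in S9-Pαhi LMPs. The list's median log2 fold changes were 0.03, 0.01, 0.43 and -0.33 in the order of the 4 comparisons, against all-gene medians of -0.0025, 0.02, -0.02 and 0.01, and the shares of all tested genes that passed were 7.00%, 4.84%, 7.77% and, for S9-SCA-1+ cells, 4.96% higher and 5.58% lower.

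Of 20 other regulators of connective tissue, 5 were higher and 1 lower in S9-Pαhi than in S9-JAG1+ LMPs, 3 higher and 2 lower in OCPs than in S9-Pαhi LMPs, and 5 higher and 1 lower in CBs than in OCPs. Without S9-Pαhi replicate 3, 3 in place of 5 passed between OCPs and S9-Pαhi LMPs. In S9-SCA-1+ cells 4 were higher and 8 lower than in S9-Pαhi LMPs. Median log2 fold changes of these regulators were 0.61, -0.13, 0.52 and -0.64 in the same order, where those of all tested genes were -0.0025, 0.02, -0.02 and 0.01. Of all tested genes 7.00%, 4.84% and 7.77% passed in the first 3 comparisons, and 4.96% were higher and 5.58% lower in the last. Eya1 and Eya2, transcriptional cofactors that also act in muscle precursors, were among the higher ones. Eya2 was at 144 ± 4.65 CPM (SD, n = 2) in S9-SCA-1+ cells, 16.2 CPM in CBs and 0.405 to 2.70 CPM in the other population means. For Eya1 the S9-SCA-1+ cells had 343 CPM, and the other means lay between 2.27 and 6.07 CPM. Cxcl14, a chemokine gene, rose from 14.3 ± 3.40 CPM in S9-Pαhi LMPs to 48.8 ± 16.05 CPM in OCPs (adjusted p = 0.000223) and to 137 ± 28.9 CPM in CBs (adjusted p = 0.000329), all SD with n = 3.

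**Figure D5:**
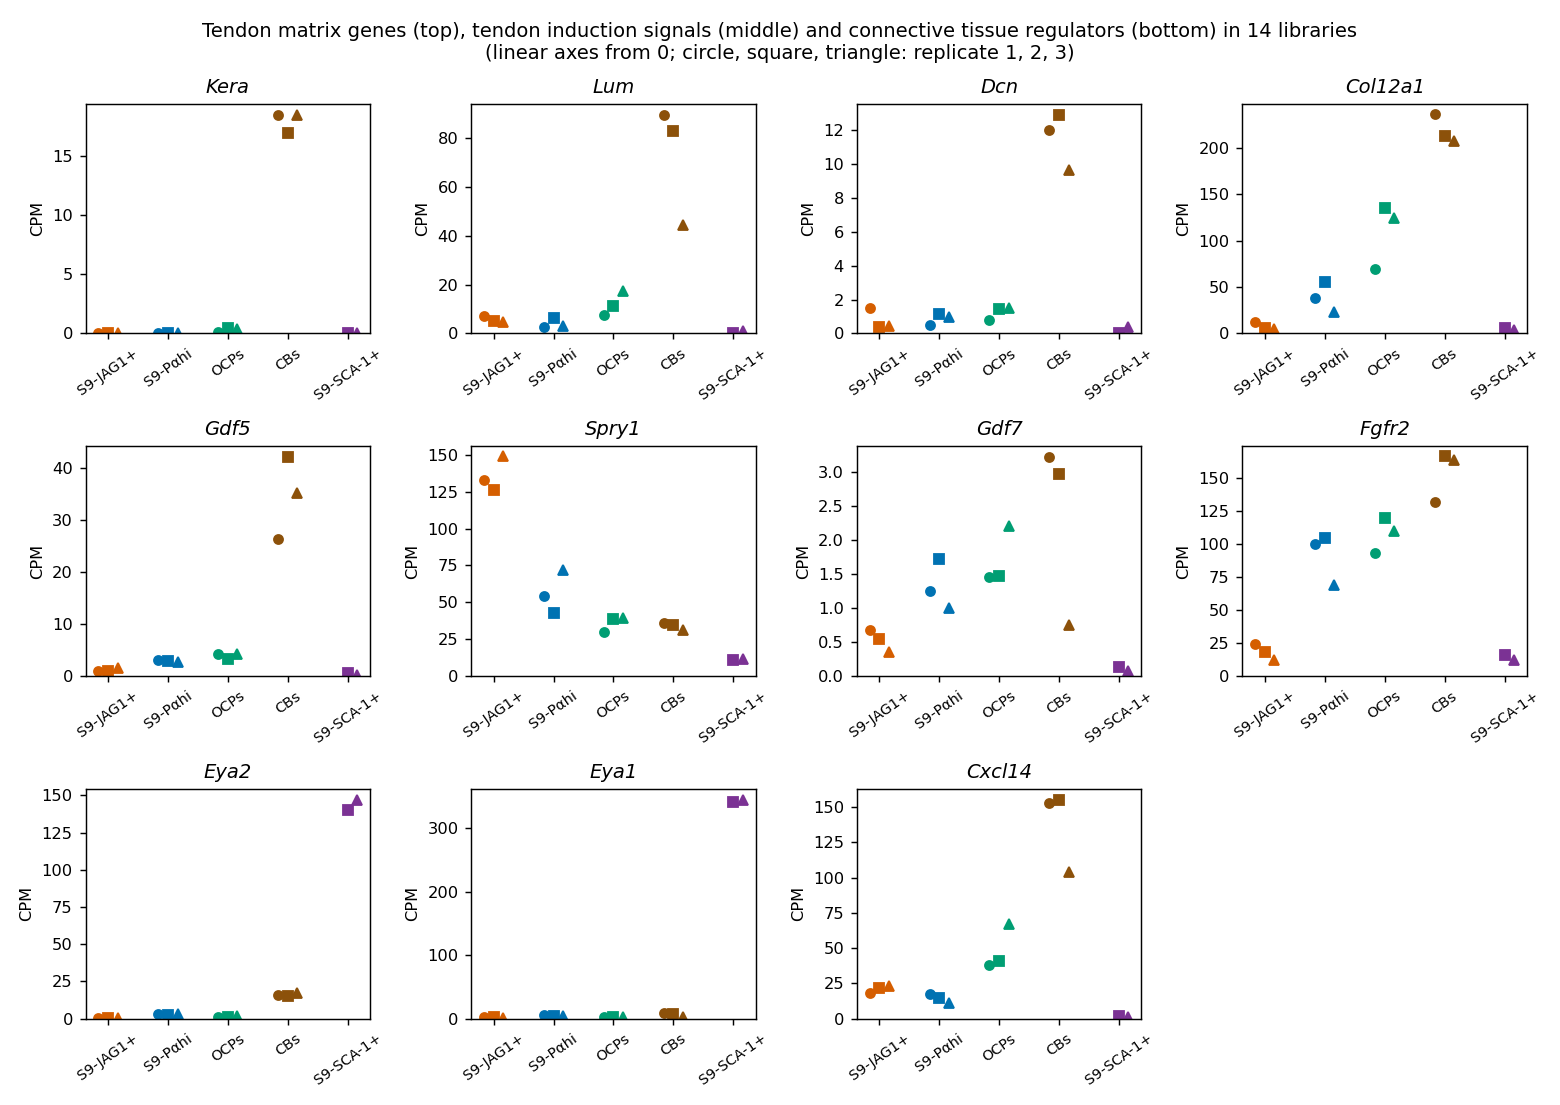
Levels of 4 tendon matrix genes, 4 genes of tendon-inducing signals and 3 connective tissue regulators in the 14 libraries, in CPM on linear axes that start at 0. Kera, Lum, Dcn and Gdf5 are high in CBs, Spry1 is highest in S9-JAG1+ LMPs (mean 136 CPM), and Eya1 and Eya2 are highest in S9-SCA-1+ cells.

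Of 22 tested immediate early and stress genes other than Egr1 and Egr2, 3 were higher and 1 lower in S9-Pαhi than in S9-JAG1+ LMPs. In OCPs 1 was higher than in S9-Pαhi LMPs, and 0 passed both limits between CBs and OCPs by edgeR or by DESeq2. In edgeR, 6 of the 22 had an unadjusted p under 0.05 between CBs and OCPs. With no limit on the fold change, 6 had an adjusted p of at most 0.1, so it was the fold limit that they missed. In S9-SCA-1+ cells 2 were higher and 3 lower than in S9-Pαhi LMPs, and the medians were 0.20, 0.32, -0.12 and -0.01 on the log2 scale, beside -0.0025, 0.02, -0.02 and 0.01 for all tested genes. The shares of all tested genes that passed were 7.00%, 4.84% and 7.77%, and then 4.96% higher and 5.58% lower, so the 1 call of 22 in the second comparison is near that share. Without S9-Pαhi replicate 1 the first comparison gave 1 call and the second 4, and without S9-SCA-1+ replicate 3 the last gave 1. Fos had means of 91.6 and 38.7 CPM in S9-Pαhi and S9-JAG1+ LMPs (adjusted p = 0.0618), and the matricellular gene Ccn1 204 and 75.2 CPM (adjusted p = 0.0104). Fosb did not pass there (adjusted p = 0.69), and Atf3, a stress response factor, was lower in S9-Pαhi LMPs (log2 fold change -1.54, adjusted p = 0.00709). In S9-SCA-1+ cells Fosb was at 12.1 CPM, below the 48.1 to 97.1 CPM of the other means, while Egr1 stood at 91.2 CPM.

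For each member the genes with the most similar pattern over the 14 libraries were sought among the 10826 tested genes averaging 5 CPM or more, by Pearson's r of log2 CPM. These are descriptions across libraries of 5 populations, and the names depend on the measure: by Spearman's correlation 7 of the 27 genes stayed among the first 3 of their member, and by the 5 population means 0 did. The gene most like Scx was Hdac11 (r = 0.988), followed by Osr2 (r = 0.982) and Large2 (r = 0.980), and Scx was in turn first for Osr2, before Sgsm2 and Btbd11. Egr2 was most like Egr1 (r = 0.972), then Rusc1 and Zfp783, and Egr1 most like Add2 (r = 0.938), Habp4 and Jun (r = 0.921). Mkx was closest to Enpp2 (r = 0.951), Gas7 and Tesk2, and Osr1 to Pcdh10 (r = 0.952), Msrb3 and C330018D20Rik. Meox1 was closest to Pmp22 (r = 0.975), Ogfod2 and Ackr3, and Meox2 to Rnd3 (r = 0.969), Ntf3 and Nedd9. Hic1 was closest to Rin2 (r = 0.991), the elastin gene Eln (r = 0.988) and Arhgef10 (r = 0.987). Between members, r was 0.886 for Meox1 with Meox2 and 0.733 for Osr1 with Osr2, and Mkx was near or below 0 with Osr1 (-0.17), Meox1 (0.03) and Meox2 (-0.22).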

How the data were processed

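The authors deposited whole-number counts of reads per gene, without normalization, in 1 table of 14 libraries with Entrez identifiers and gene lengths. According to their methods, single-end reads were aligned to mm10 with STAR, with 1 position kept for a read that fits several, and reads starting in an exon of a RefSeq mRNA were counted with qCount of QuasR. The genome build and STAR are also named in the submitters' processing notes. RefSeq (GRCm38.p6) gave symbols for 24374 of the 24454 identifiers, and the other 80 held 0.358% of the counts.

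From these counts, CPM on TMM-scaled totals and log2 CPM (prior count 2) were computed with edgeR 4.0.16 (R 4.3.3), and filterByExpr, given the populations, chose the genes to test. One model of 5 population means was fitted to all 14 libraries, with a biological coefficient of variation of 13.4%, and tested by quasi-likelihood F. A call needed a Benjamini-Hochberg adjusted p no larger than 0.1 and a log2 change of 1.2 or more either way, and the SE is the log2 fold change divided by the square root of F. Paralogue ratios were compared by an exact permutation test. The procedure was tested on simulated data. DESeq2 1.42.0 was an alternative, with 2 scalings, 2 filters, other limits, a replicate block, fewer populations and each library left out. Python 3.11.15 and matplotlib 3.10.9 served for promoters and figures.

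The 10 members and the lists were chosen with earlier results of these data known. Besides the members, the text names the 3 genes most like each tested member, up to 4 genes of each of 4 lists with the largest range of population means past the test of all populations, genes that check the gates, and marker genes beside a member they move with. One gene that this rule names is not reported here. Spry2, Spry4, Tnc, Thbs4 and Hoxc10 were named after their values were seen. Lists of chondrogenic, posterior distal, ectoderm and endothelial markers were also summed: chondrogenic markers lay at 1446 to 3472 CPM in OCPs and CBs and posterior distal ones at 1831 to 2596 CPM in S9-JAG1+ LMPs, and endothelial and ectoderm markers were at most 20.5 CPM in any library.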

Additional observations from a re-analysis of the deposited data

Results flagged for a closer look

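In 2 cases the log2 ratio of paralogues stood apart from the others of their group of 6 libraries past Dixon's 95% critical value. The log2 ratio of Meox1 to Meox2 was -2.89 in CB replicate 3, where the nearest of the Sox9+ libraries was at -2.50 and the gap was 0.640 of the range. The log2 ratio of Egr1 to Egr2 was 6.36 in OCP replicate 1, where the nearest was at 5.36 and the gap was 0.641 of the range. Dixon's value holds for draws from 1 normal population, whereas each group here joins 2 populations. How often chance sets apart a library is therefore not known, and 6 groups were examined. CB replicate 3 had fewer anterior and proximal transcripts than the other CB libraries, and OCP replicate 1 held 11 counts of Egr2 and more Pitx1 than the other OCP libraries. The part of these in the ratios was not tested.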

How the results depend on the processing

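Of the 51 member differences past both limits, 39 passed in every setting in which they were tested, 45 to 51 were kept with 1 library left out and 47 to 51 under the others, and none turned direction. Leaving out the chondroblasts tested only the 33 differences without them, and all 33 were kept. Mkx between CBs and S9-Pαhi LMPs (log2 1.202) was lost in 15 settings. With library totals in place of TMM, 2 members passed between CBs and OCPs, and the median of all genes moved by 0.12 on the log2 scale for CBs against S9-JAG1+ LMPs, 0.11 against S9-Pαhi LMPs and 0.11 against S9-SCA-1+ cells. At an adjusted p of at most 0.05, 3 immediate early genes passed between S9-SCA-1+ cells and S9-Pαhi LMPs. With no limit on the fold change, the members called were 3 (CBs against OCPs), 7 (S9-SCA-1+ against S9-Pαhi), 8 (CBs against S9-Pαhi) and 7 (CBs against S9-SCA-1+). Matrix genes were then 16 for CBs against OCPs. For S9-Pαhi against S9-JAG1+, OCPs against S9-Pαhi and CBs against OCPs, in this order, induction genes were 14, 9 and 11, connective tissue regulators 13, 11 and 16, and immediate early genes 7, 3 and 6, with 9 of the last for S9-SCA-1+ against S9-Pαhi. The shares of all tested genes given above hold with the fold limit, and none is given without it. The counts without that limit therefore do not show whether members or lists passed more often than other genes.

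Replicate numbers are shared by the labels, but 4 of 26 correlations of deviations exceeded 0.1 (-0.18 to 0.31) and 5 of 14 libraries correlated best with their own number. With the replicate block, 3 immediate early genes passed for S9-SCA-1+ against S9-Pαhi LMPs, Osr1 had a log2 fold change of -1.19 between OCPs and S9-Pαhi LMPs, under the fold limit, so that its call was lost, and the counts of all calls were 0.992 to 1.02 times as large. Without the 3 libraries with most Pitx1, chosen after seeing the data, 2 members and 2 immediate early genes passed for CBs against OCPs and 3 members for CBs against S9-Pαhi LMPs. With only the 2 populations compared, 0 immediate early genes passed for OCPs against S9-Pαhi LMPs. The cause was not tested.

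With each library left out, S9-Pαhi against S9-JAG1+ gave 7 to 11 matrix, 5 to 9 induction and 1 to 4 immediate early genes. OCPs against S9-Pαhi gave 3 to 7 members, 3 to 6 connective tissue regulators and 0 to 4 immediate early genes. CBs against OCPs gave 1 to 2 members and 0 to 1 immediate early genes, S9-SCA-1+ against S9-Pαhi 1 to 5 immediate early genes, and CBs against S9-Pαhi 2 to 6 members, the fewest without S9-Pαhi replicate 3. The Egr1 to Egr2 difference ran from -0.44 to -0.13. With Spearman's correlation 7 of the 27 most similar genes stayed among the first 3, and with the 5 population means 0 did. Tnmd was at the limit of this depth.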
